A study of Homo sapiens with 3 samples.

Results

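Histone mark peaks were examined at the activator protein 1 (AP-1) transcription factor genes JUN, JUNB, JUND, FOS, FOSB, FOSL1, FOSL2 and ATF3, which are 8 of the 20163 protein-coding genes in the annotation used. The genes were chosen by name, and each was described by the peaks that lay over the annotated gene or within 50 kb of it, an interval called the window below. ChIP-seq was performed in H2087 cells, an established human lung adenocarcinoma cell line grown in RPMI medium with fetal bovine serum. The study's methods describe no treatment of these cells before fixation. The antibodies recognised H3K27ac, a histone H3 acetylation found at active promoters and enhancers, and H3K4me3, a histone H3 trimethylation found mainly at promoters. Each mark was represented by 1 library (n = 1), and an input library without immunoprecipitation was not analysed here. No value therefore has a replicate error, and no test between genes or marks was made.

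AP-1 is a dimer of basic leucine zipper proteins, made of a JUN protein paired with a FOS, ATF or second JUN protein. FOS proteins cannot pair with each other and depend on a JUN partner, whereas JUN proteins also form homodimers. JUN with FOS binds TGACTCA or TGAGTCA, which are included in the wider search motif TGANTCA. Pairs that include an ATF protein prefer TGACGTCA. Most of these genes are immediate-early genes, which are transcribed within minutes after serum, growth factors or stress. They are switched off again soon afterwards, so their transcription depends on when cells are sampled. No time course was made here, and an effect of timing on the marks was not tested.

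The cell line label was compared with marker genes. All 6 epithelial markers (KRT7, KRT8, KRT18, KRT19, EPCAM and CDH1) had peaks of both marks within 1 kb of the start of their canonical transcript. Among 4 lung lineage genes, NKX2-1 had both marks there, whereas NAPSA, SFTPB and SFTPC had neither. No H3K27ac peak was found at the starts of 4 blood, 4 fibroblast and 2 endothelial markers, and H3K4me3 was found only at that of CD14 among them. Of all protein-coding genes, 25.2% had H3K27ac and 41.3% had H3K4me3 there, so most genes lacked each mark at this place. The number of reads is not part of the lists, so the depth is unknown, and the absence of a peak at a gene cannot be separated from a lack of reads there.

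To show the DNA in front of these genes, the 400 bases before each canonical transcript start were searched on both strands. The 6 promoters that held a motif with known importance for the gene group are printed here from the GRCh37 (hg19) assembly, each from 324 to 25 bases before the start, read 5′ to 3′ in the direction of transcription. Capitals mark TGACATCA in JUN, TATAAA in JUNB, FOS, FOSB and ATF3, TGACGTCA in JUND and FOSB, and the CArG box in FOS and FOSB. The FOSB copy of TGACGTCA began 1 base before the printed stretch, so its first letter is missing.
JUN (chr1:59249744-59250043, minus strand): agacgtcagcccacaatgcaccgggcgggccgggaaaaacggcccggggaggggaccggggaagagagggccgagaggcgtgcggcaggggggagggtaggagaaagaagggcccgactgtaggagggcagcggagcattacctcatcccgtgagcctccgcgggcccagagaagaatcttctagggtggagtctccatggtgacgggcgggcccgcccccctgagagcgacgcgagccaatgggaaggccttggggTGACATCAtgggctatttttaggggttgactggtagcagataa
JUNB (chr19:12901976-12902275, plus strand): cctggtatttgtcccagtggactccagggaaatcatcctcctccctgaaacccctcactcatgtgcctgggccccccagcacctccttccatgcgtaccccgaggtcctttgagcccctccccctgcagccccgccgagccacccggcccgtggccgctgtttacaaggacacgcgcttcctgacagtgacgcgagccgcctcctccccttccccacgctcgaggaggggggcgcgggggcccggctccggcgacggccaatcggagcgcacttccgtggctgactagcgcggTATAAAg
JUND (chr19:18392457-18392756, minus strand): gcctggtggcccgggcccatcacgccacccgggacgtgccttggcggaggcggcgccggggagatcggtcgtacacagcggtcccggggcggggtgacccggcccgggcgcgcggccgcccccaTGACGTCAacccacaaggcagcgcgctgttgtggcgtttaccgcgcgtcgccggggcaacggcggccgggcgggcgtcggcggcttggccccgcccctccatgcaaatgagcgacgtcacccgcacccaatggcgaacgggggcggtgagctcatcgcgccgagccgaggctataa
FOS (chr14:75745207-75745506, plus strand): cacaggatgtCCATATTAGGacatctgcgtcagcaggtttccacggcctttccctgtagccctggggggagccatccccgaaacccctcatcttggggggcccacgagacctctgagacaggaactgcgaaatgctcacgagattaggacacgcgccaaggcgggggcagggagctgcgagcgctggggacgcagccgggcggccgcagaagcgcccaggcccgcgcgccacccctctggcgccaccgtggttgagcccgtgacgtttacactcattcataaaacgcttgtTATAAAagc
FOSB (chr19:45970930-45971229, plus strand): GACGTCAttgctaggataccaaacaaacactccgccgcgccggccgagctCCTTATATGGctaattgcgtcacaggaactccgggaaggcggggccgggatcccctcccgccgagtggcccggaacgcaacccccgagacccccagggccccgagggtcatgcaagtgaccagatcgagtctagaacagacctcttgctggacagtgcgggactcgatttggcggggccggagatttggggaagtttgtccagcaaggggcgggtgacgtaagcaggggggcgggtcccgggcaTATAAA
ATF3 (chr1:212781779-212782078, plus strand): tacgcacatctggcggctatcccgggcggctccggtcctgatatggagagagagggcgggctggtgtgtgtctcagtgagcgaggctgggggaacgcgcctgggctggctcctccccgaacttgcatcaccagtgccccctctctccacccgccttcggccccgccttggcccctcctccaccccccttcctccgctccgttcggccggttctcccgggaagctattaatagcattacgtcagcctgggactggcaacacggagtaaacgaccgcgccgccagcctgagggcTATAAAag

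The CArG box is the core of the serum response element, where serum response factor binds. In FOS it lay 314 to 305 bases before the start and in FOSB 274 to 265 bases before it, and 1.87% of all 20163 promoters of this length held such a box. TGACATCA is the known proximal AP-1 site of JUN, through which JUN acts on its own gene. It lay 67 to 60 bases before the JUN start and occurred in 2.42% of all promoters. TGACGTCA, the cyclic AMP response element, was found 200 to 193 bases before JUND and 325 to 318 bases before FOSB, and in 2.74% of all promoters. TATAAA stood 25 to 33 bases before the starts of JUNB, FOS, FOSB and ATF3, the place of a TATA box, and was present anywhere in 14.5% of all promoters.

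TGANTCA was not found in any of the 8 promoters, against 7.76% of all promoters. The letters GGGCGG, a GC box, occurred on either strand in 7 of the 8, all except JUNB, and in 62.9% of all promoters. JUND held 12 of them, of which 1 pair overlapped each other, and had a GC content of 78.8%, above 97.1% of all promoters, whose median was 59.8%. FOSL1 and FOSL2 held none of the motifs other than the GC box. None of the motifs printed in capitals overlapped another. These matches describe letters in a window and do not show binding.

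Together the 8 windows held 62 H3K27ac peaks over 23039 bp and 51 H3K4me3 peaks over 20635 bp. The peaks were unevenly divided, since FOSL1 alone held 18 H3K27ac and 22 H3K4me3 peaks, and without FOSL1 the totals were 44 and 29. By canonical starts, FOSL1 was the nearest protein-coding gene for 7 of these H3K27ac peaks and 7 of these H3K4me3 peaks, and the others were nearer to a neighbouring gene. FOSB had no peak of either mark, and ATF3 had no H3K27ac peak. A window without any peak was found for 1 of the 8 genes, compared with 23.6% of all protein-coding genes. A window without H3K27ac was found for 2 of 8, compared with 36.1%.

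**Figure D1:**
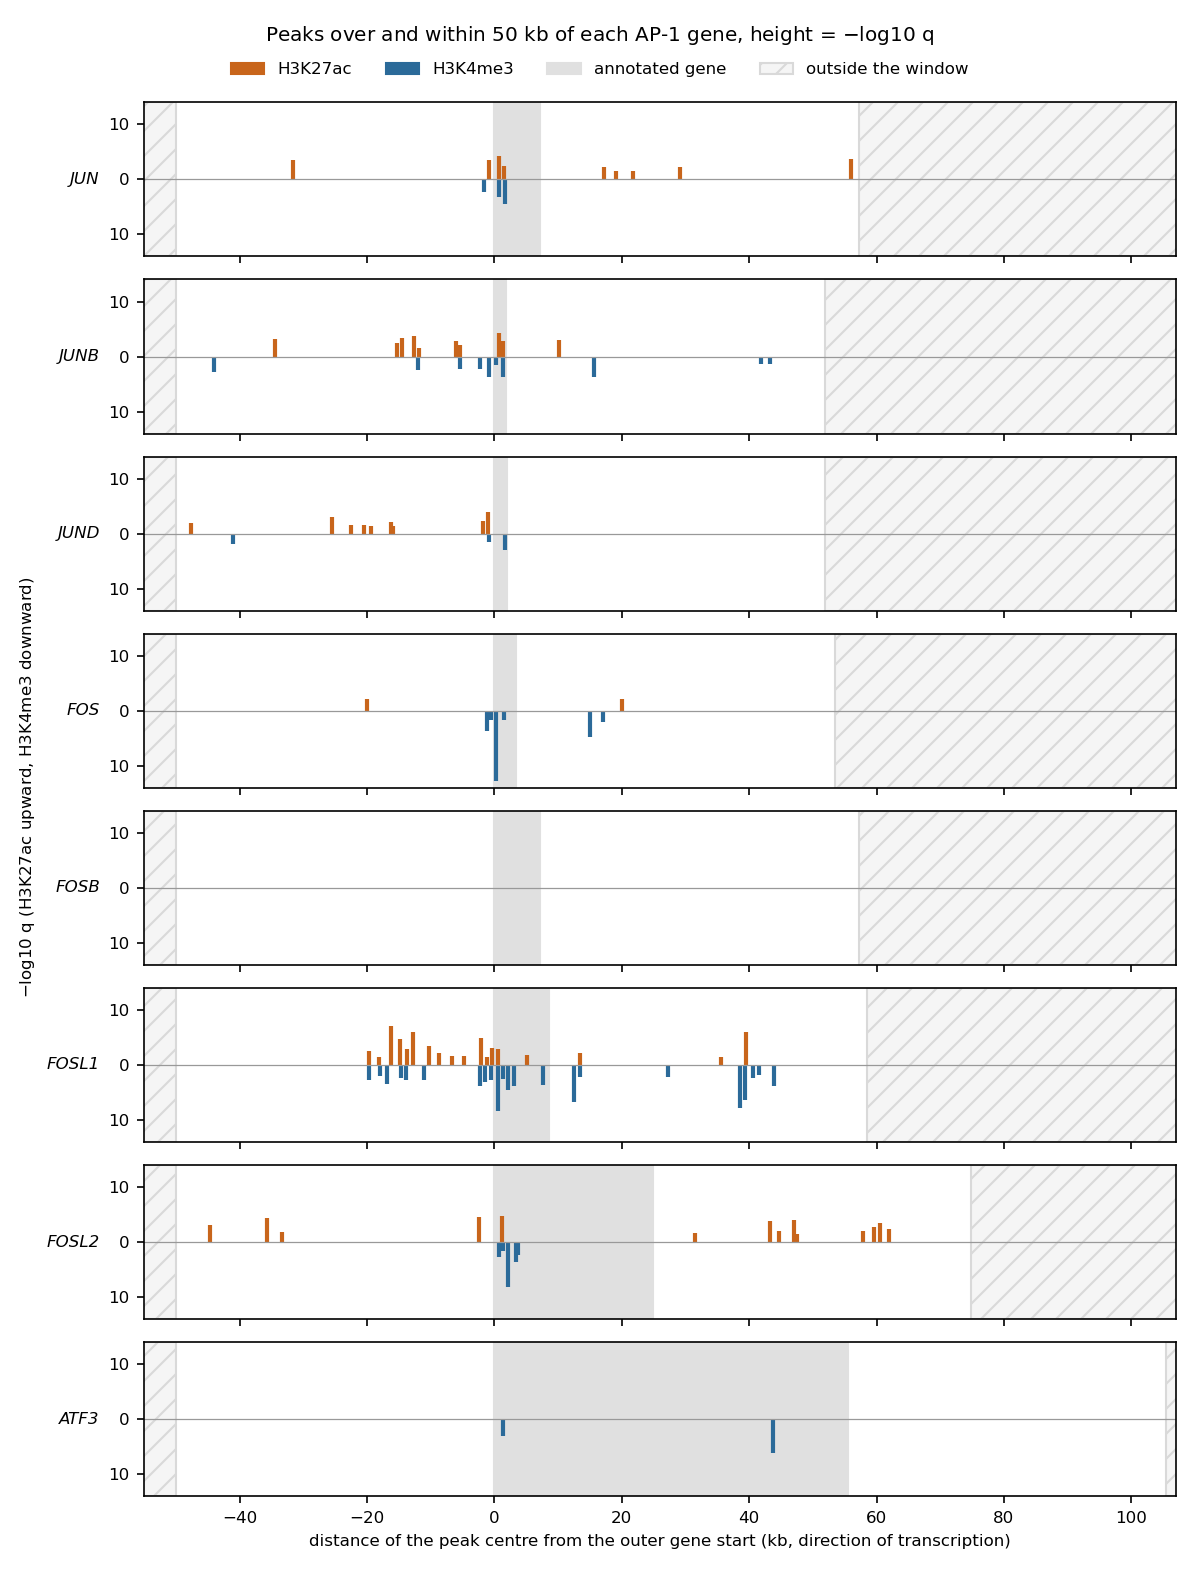
Peaks over and within 50 kb of the 8 AP-1 genes. The horizontal axis is the distance of the peak centre from the outer gene start in kb in the direction of transcription, bars upward give the −log10 q of H3K27ac peaks and bars downward that of H3K4me3 peaks, grey marks the annotated gene and hatching the area outside the window. FOSL1 carries the densest peaks, FOSB carries none, FOS has its highest H3K4me3 bar at the start, and JUN and FOSL2 have groups of H3K27ac bars beyond the gene end without H3K4me3.

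By length under H3K27ac peaks, the order of the genes was FOSL1 (9728 bp), FOSL2 (4293 bp), JUNB (3317 bp), JUN (2864 bp), JUND (2366 bp) and FOS (471 bp), with FOSB and ATF3 at 0. The order for H3K4me3 was FOSL1 (9366 bp), JUNB (3805 bp), FOS (2317 bp), FOSL2 (2025 bp), JUN (1431 bp), JUND (1044 bp) and ATF3 (647 bp), with FOSB at 0. Windows differ in length because the gene itself is included, so the same values were expressed per kb of window. FOSL1 then had 89.6 bp of H3K27ac and 86.3 bp of H3K4me3 per kb, against 32.6 and 37.4 bp for JUNB, and the order of the genes stayed as above for both marks. With 1 library per mark, neighbours in these orders cannot be said to differ.

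The medians of the members stood further above those of all protein-coding genes for H3K27ac than for H3K4me3. The median over the 8 genes was 9 H3K27ac and 4 H3K4me3 peaks, and over all genes it was 1 (interquartile range 0 to 4) and 2 (0 to 4). In length, the medians were 2615 and 1728 bp for the members, and 415 and 617 bp for all genes. For H3K27ac, 6 of the 8 members lay above the median of all genes by length, and for H3K4me3 7 did.

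The number of protein-coding starts inside a window moves with these values. FOSL1 had 10 such starts in its window, JUNB 7, JUND 6 and FOSB 5, while JUN and FOS had only their own. Among the 255 genes with as many starts as FOSL1, 94.5% had a shorter length under peaks than FOSL1 for either mark. JUN exceeded 95.5% of the 4109 genes with 1 start for H3K27ac and 93.4% for H3K4me3, and FOS exceeded 73.5% and 98.1% of the same genes. The median length of these genes was 0 bp for both marks, and 57.6% of them had no H3K27ac peak. The 471 bp of H3K27ac in the FOS window thus sufficed for its rank. JUND was below the median of its 1095 comparable genes for H3K4me3, 1044 bp against 1511 bp, although above it for H3K27ac, 2366 bp against 1110 bp.

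**Figure D2:**
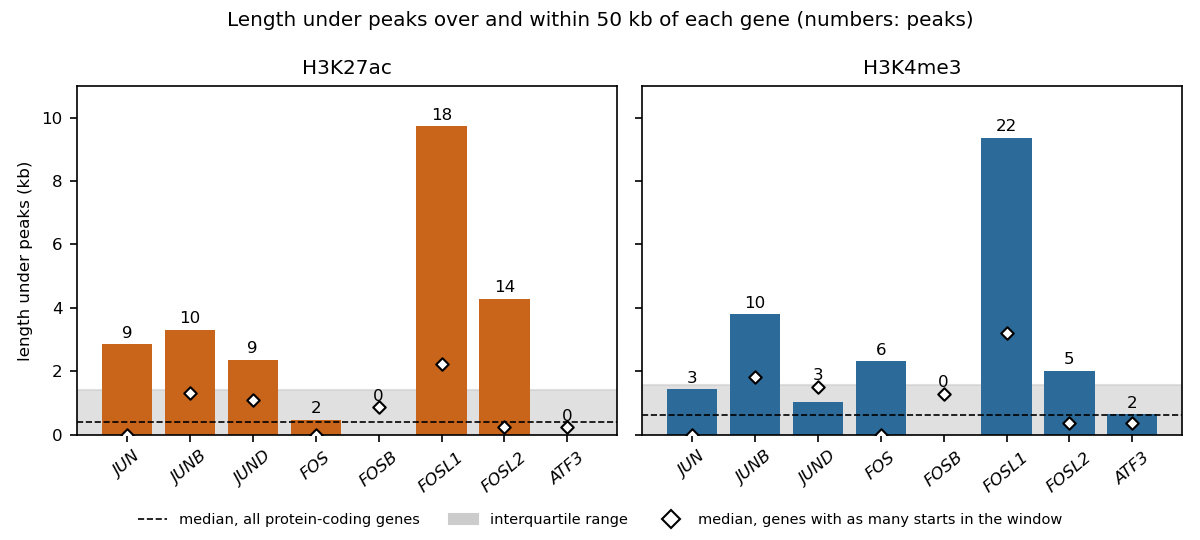
Length under peaks in kb over and within 50 kb of each AP-1 gene, for H3K27ac and H3K4me3, with the number of peaks above each bar. The dashed line and grey band are the median and interquartile range of all protein-coding genes, and diamonds are the median of the genes with as many protein-coding starts in their window. FOSL1 reaches 9.73 and 9.37 kb, and JUND is the only gene with peaks that lies below its diamond for H3K4me3.

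A gene start was called marked when a peak lay within 1 kb. Counted from the outermost annotated transcript start of the gene, H3K4me3 marked 6 of 8 starts (JUN, JUNB, JUND, FOS, FOSL1 and FOSL2), compared with 38.2% of all genes. H3K27ac marked 4 of 8 (JUN, JUNB, JUND and FOSL1), compared with 23.6%, and the same 4 genes had both marks, compared with 18.6%. ATF3 and FOSL2 have a canonical transcript that starts well inside the annotated gene, 43427 bp and 410 bp after the outer start. From canonical starts, H3K4me3 marked 7 of 8, all except FOSB, compared with 41.3% of all genes, and H3K27ac marked 5 of 8 with FOSL2 added, compared with 25.2%. The starts thus fell into 3 kinds, with both marks (JUN, JUNB, JUND, FOSL1 and FOSL2), with H3K4me3 alone (FOS and ATF3) and with neither (FOSB). The H3K4me3 peaks that marked JUND and FOSL2 were below the list median of −log10 q, the score given by the peak caller. Without peaks below the median of each list, H3K4me3 marked 4 of 8 outer starts, compared with 26.8% of all genes. H3K27ac still marked 4 of 8, compared with 14.9%.

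No canonical start was itself covered by a peak. An H3K4me3 peak covered 0 of the 7 canonical starts with such a peak within 1 kb, and 7.14% of all such starts. An H3K27ac peak covered 0 of 5, and 4.33% of all such starts, so a peak over the start itself was uncommon among all genes too. The gap between the last H3K4me3 peak before the start and the first after it was 525 bp at FOS, 615 bp at FOSL1, 641 bp at JUNB, 2014 bp at JUN and 2371 bp at JUND. In each of the 7 genes H3K4me3 was found downstream of the start, closest at FOS (41 bp after the canonical start) and farthest at JUND (1583 bp).

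**Figure D3:**
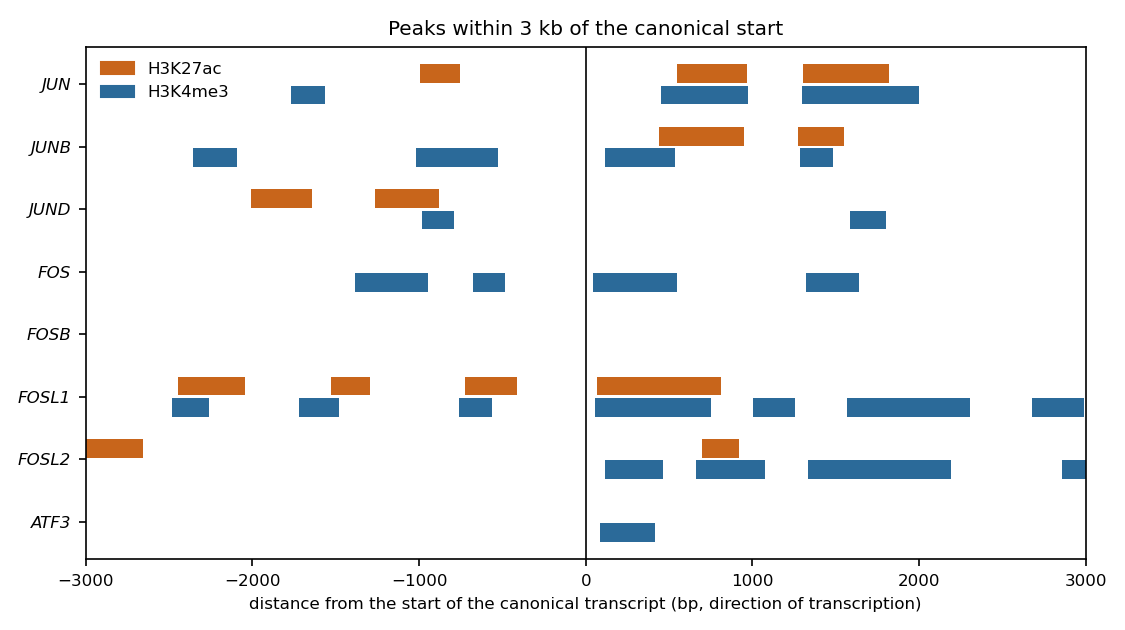
Peaks within 3 kb of the canonical transcript start of each AP-1 gene. The horizontal axis is the distance from that start in bp in the direction of transcription, and each bar spans 1 peak of H3K27ac (orange) or H3K4me3 (blue). No bar crosses the start line, JUND has H3K27ac only upstream, FOS and ATF3 have H3K4me3 alone, and FOSB is empty.

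JUN encodes the founding JUN protein, a strong transcriptional activator, and has 1 exon. It lies at chr1:59242517-59249720 on the minus strand and had 9 H3K27ac and 3 H3K4me3 peaks in its window. The −log10 q that the peak caller gave a peak ranks it within its own list, where the medians were 2.65 for H3K27ac and 2.97 for H3K4me3. Over the exon, 2 H3K4me3 peaks at 454 to 975 bp (−log10 q 3.16) and 1297 to 1999 bp (4.54) after the start lay on 2 H3K27ac peaks at 550 to 971 bp (4.32) and 1302 to 1821 bp (2.45). The first pair covered the 5′ untranslated region and the second pair the coding sequence. Upstream, an H3K27ac peak at 992 to 751 bp before the start (3.55) and an H3K4me3 peak at 1766 to 1561 bp (2.23) did not meet.

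Beyond the 3′ end of JUN, 4 further H3K27ac peaks formed a stitched region, the name for H3K27ac peaks joined across gaps of up to 10 kb. It ran from 17.04 to 29.41 kb after the start, along the long noncoding RNA gene ENSG00000283445, and contained no H3K4me3 peak. Its −log10 q values were low, 1.55 to 2.16. The remaining H3K27ac peaks of the window were stronger than these, at 31.8 kb before the start in LINC01135 (3.54) and at 55.8 kb after it (3.71).

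JUNB encodes a JUN protein that activates transcription more weakly than JUN and can oppose it. It lies at chr19:12902300-12904129 on the plus strand, also has 1 exon, and had 10 peaks of each mark. H3K4me3 flanked the start, at 1019 to 526 bp before it (−log10 q 3.76) and at 116 to 538 bp after it (1.55). H3K27ac began later, at 439 to 949 bp (4.29), where it overlapped the second of these, and again at 1274 to 1547 bp (2.82), over an H3K4me3 peak at 1283 to 1486 bp (3.76). Both marks were thus present over the JUNB exon, and H3K4me3 alone in the 1 kb before its start. The widest H3K27ac peak of the window, 525 bp, lay 5630 to 5106 bp before the start (2.16), and the widest H3K4me3 peak, 715 bp, covered exons of RNASEH2A (3.76). The window held a stitched region of 9 H3K27ac peaks over 25.8 kb, from 15.5 kb before to 10.3 kb after the start. This region ranked 301 of 4606 by length under peaks and contained 6 H3K4me3 peaks. It reached from the outer span of HOOK2 to exon 1 of PRDX2. Its H3K27ac peaks from 15476 to 11694 bp before the start were nearest to JUNB by outer starts. By canonical starts HOOK2 was nearer to them, at 458 to 3965 bp, and the last peak lay 44 bp from the PRDX2 start. Which of these genes the peaks of this region act on was not tested.

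JUND encodes the JUN protein that is present in resting cells and responds least to serum. It lies at chr19:18390504-18392432 on the minus strand and has 1 exon. Its start peaks lay only upstream, with H3K27ac at 1263 to 879 bp (−log10 q 3.999) and H3K4me3 at 982 to 789 bp before the start (1.55), the latter above only 6.37% of its list. Over the gene there was no H3K27ac, and 1 H3K4me3 peak (2.97) lay in the 3′ untranslated region, 1583 to 1805 bp after the start. A stitched region of 6 H3K27ac peaks stood 25.5 to 15.8 kb upstream, up to exon 5 of the neighbouring gene LSM4, without H3K4me3. Its peaks ranged from 1.39 to 3.05 in −log10 q. The widest H3K4me3 peak of the window, 627 bp, lay in an intron of LSM4, 77 bp from the canonical start of that gene (1.91).

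FOS encodes the founding FOS protein and is the textbook immediate-early gene. It lies at chr14:75745529-75748933 on the plus strand and has 4 exons. Its H3K4me3 peak at 43 to 548 bp after the start, over the 5′ untranslated region and coding sequence of exon 1, had a −log10 q of 12.7, the highest of all 113 peaks described here and above 99.4% of the H3K4me3 list. This peak had 2 summits and lay downstream of the promoter printed above. Other H3K4me3 peaks lay at 1382 to 943 bp (3.72) and 674 to 483 bp (1.69) before the start and in an intron (1.62).

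H3K27ac was not called near FOS. The closest peaks lay 19896 bp upstream (−log10 q 2.22) and 19964 bp downstream (2.11) of the start, each weaker than the list median. A downstream H3K4me3 peak at 14.7 to 15.3 kb (4.85), with another in LINC01220 at 16.8 to 17.1 kb (2.03), was outside any protein-coding gene. FOS was thus the member with the strongest H3K4me3 peak and, among the 6 genes with H3K27ac in the window, the one with the least of it.

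FOSB encodes a close relative of FOS whose transcription also depends on serum response elements. It lies at chr19:45971253-45978437 on the plus strand and has 4 exons. No peak of either mark lay in its window, although the window held 5 protein-coding starts. Of the 1692 genes with 5 such starts, 13.7% had no peak. The stretch without peaks around FOSB measured 481.0 kb, from 280 kb before the gene to 193 kb after it, and included 15 protein-coding starts, among them those of the DNA repair genes ERCC1 and ERCC2 and of VASP.

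Stretches of this length mostly held few genes, although FOSB was not alone. Of 36715 stretches between neighbouring peaks, 1166 were at least this long, with a median of 2 protein-coding starts, and 57 of them had at least 15 starts. Within 1 Mb of FOSB, 10 of 66 outer protein-coding starts (15.2%) had H3K4me3, against 38.2% of all genes, and 10 (15.2%) had H3K27ac, against 23.6%. Of the 32-base words in the reference sequence of the FOSB window, 79.0% occurred at 1 place in the genome, against 78.9 to 93.2% for the other members. Around the start this was 100%, against 99.01 to 100%, and the rest of the 481.0 kb stretch was not examined in this way. The part of mappability, copy number and read depth in the absence of peaks was not tested.

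FOSL1 encodes FRA-1, a FOS-related protein without a transactivation domain of the FOS kind that is raised by ERK signalling and in many epithelial tumours. It lies at chr11:65659520-65668044 on the minus strand and has 4 exons. Its window was the richest, with 18 H3K27ac and 22 H3K4me3 peaks, of which 11 of each mark overlapped the other. At the start, H3K4me3 at 238 to 938 bp (−log10 q 8.36, above 97.2% of the list) and H3K27ac at 254 to 997 bp (2.82) nearly coincided over exon 1. Further H3K4me3 peaks covered introns and exon 4, which made 5 over the gene, while H3K27ac had 1 further peak there, in an intron (1.76). Just upstream the marks overlapped again, with H3K27ac at 542 to 229 bp (3.17) and H3K4me3 at 575 to 378 bp (2.73) before the start.

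Upstream of FOSL1 stood the strongest H3K27ac peak of all 8 windows, 1453 bp wide with 3 summits, at 17001 to 15549 bp before the start (−log10 q 7.04, above 98.1% of the list). It covered exon 2 of the neighbouring gene C11orf68. The widest H3K27ac peak, 1542 bp, lay over DRAP1 (2.53), and the widest H3K4me3 peak, 966 bp (3.87), lay over the outer start of MUS81 and an intron of CFL1. A peak at 13150 to 12258 bp before the start (5.92) lay outside annotated genes. A stitched region at chr11:65654428-65688520 joined 16 H3K27ac peaks over 34.1 kb and spanned FIBP, CCDC85B, FOSL1, C11orf68 and DRAP1. It held 9.08 kb under peaks, which ranked 32 of 4606 regions, and 16 H3K4me3 peaks. Which of these genes the peaks act on was not tested.

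FOSL2 encodes FRA-2, the other FOS-related protein. It lies at chr2:28615315-28640184 on the plus strand and has 4 exons. All 5 of its H3K4me3 peaks lay between 527 and 3858 bp after the outer start, the strongest in an intron at 1741 to 2600 bp (−log10 q 8.17, above 96.9% of the list). H3K27ac was found over exon 1 at 1106 to 1332 bp (4.72) and upstream at 2656 to 2245 bp (4.49), in the antisense gene FOSL2-AS1. The other 12 H3K27ac peaks of the window were distal and had no H3K4me3 peak over them.

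The largest of the distal groups was a stitched region of 8 H3K27ac peaks at 43.15 to 62.04 kb after the start, 18.3 to 36.9 kb beyond the gene end. It ranked 511 of 4606 regions, contained no protein-coding gene and no H3K4me3 peak, and its −log10 q values ran from 1.55 to 3.95. By outer starts, PLB1 was the nearest protein-coding gene for all 8 peaks. By canonical starts, FOSL2 was nearest for 4 of them and PLB1 for the other 4, at distances of 41576 to 46995 bp. On the other side, 3 H3K27ac peaks between 44.7 and 33.3 kb before the start formed a further region, whose strongest peak (4.47) was also the widest H3K27ac peak of the window at 729 bp. FOSL2 was second among the members by H3K27ac length although its window had only 2 protein-coding starts, and it exceeded 97.2% of the 4610 genes with that number.

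ATF3 encodes a stress-induced protein of the ATF family, which represses transcription as a homodimer. It lies at chr1:212738676-212794119 on the plus strand, and its canonical transcript has 4 exons. An H3K4me3 peak of 330 bp (−log10 q 6.12, above 90.4% of the list) began 88 bp after the canonical start, over the 5′ untranslated region of exon 1. A weaker one (2.97) lay 1154 to 1470 bp after the outer start of the longer transcripts, 42.0 kb upstream of the canonical start. No H3K27ac peak was found in the 155 kb of the window, and the 2 H3K4me3 peaks made up 4.16 bp per kb. The nearest peaks outside the gene were 81.9 kb before and 79.1 kb after it.

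**Figure D4:**
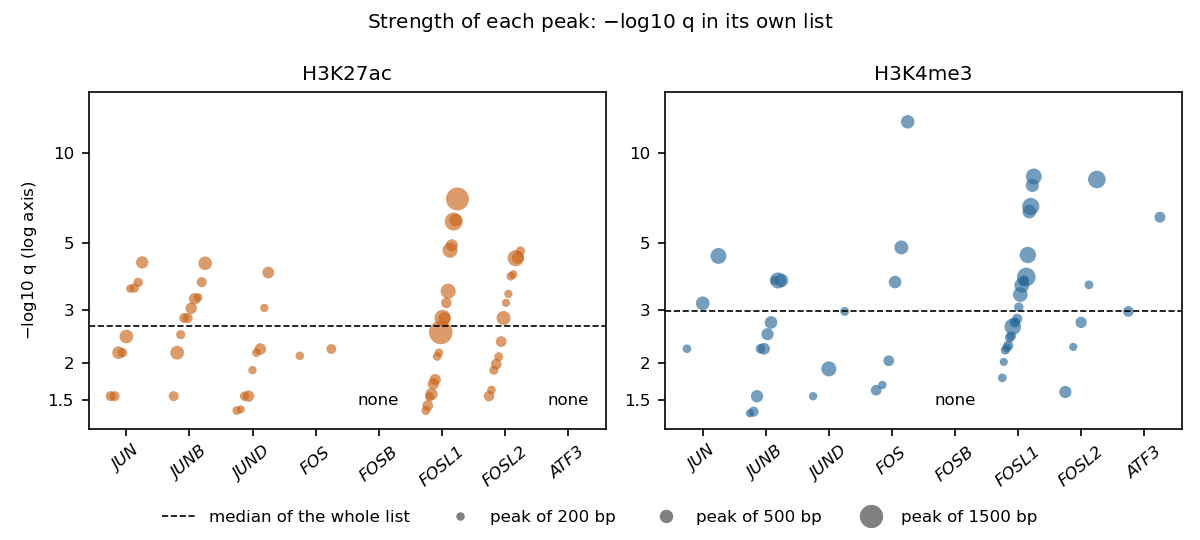
The −log10 q of every peak in the windows of the 8 AP-1 genes, on a log axis, for H3K27ac and H3K4me3. Each point is 1 peak, its area grows with peak width, points of a gene are ordered by value, and the dashed line is the median of the whole list, 2.65 and 2.97. The FOS peak at 12.7 and the FOSL1 peak at 7.04 are the highest of each mark.

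As peaks, those of the members resembled their lists. The median width was 278 bp for H3K27ac and 324 bp for H3K4me3, against 284 and 305 bp in the whole lists, and the median −log10 q was 2.50 and 2.73 against 2.65 and 2.97. H3K4me3 overlapped 19 of the 62 H3K27ac peaks (30.7%, 95% interval 19.6 to 43.7), against 24.02% in the list. Seen from the other mark, 19 of the 51 H3K4me3 peaks (37.3%, 24.1 to 51.9) met H3K27ac, against 31.1%. Both shares rested on FOSL1. Without it they were 18.2% for H3K27ac and 27.6% for H3K4me3, each below the share in its list. Outside FOSL1, the marks overlapped over the exon of JUN and JUNB, at the starts of JUND and FOSL2 and at 2 places upstream of JUNB.

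At a −log10 q of at least 5, 3 H3K27ac and 7 H3K4me3 peaks remained. All 3 H3K27ac peaks and 4 of the H3K4me3 peaks belonged to FOSL1, and FOS, FOSL2 and ATF3 kept 1 H3K4me3 peak each. At this level H3K4me3 was left within 1 kb of the outer start of FOS and FOSL1 (10.7% of all genes) and H3K27ac at no member (3.53% of all genes). The ATF3 peak was not counted there, because it began 88 bp after the canonical start, far from the outer start.

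Peaks were also searched for the binding motifs of the AP-1 proteins themselves, since several of these genes are known to be controlled by AP-1. TGANTCA was found in 4 of 62 H3K27ac peaks (6.45%, 95% interval 1.79 to 15.7), compared with 5.47% of the whole list, and in 2 of 51 H3K4me3 peaks (3.92%, 0.479 to 13.5), compared with 4.26%. These shares were close to those of the lists. TGACGTCA was found in 2 of 62 H3K27ac peaks (3.23%, 0.393 to 11.2), compared with 0.220% of the list. It was found in 0 of 51 H3K4me3 peaks (0 to 6.98%), compared with 0.199% of that list. Both of its copies lay downstream of FOSL2.

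Stretches of 120 bases from 5 of these peaks are shown because they hold an AP-1 motif under a histone mark within the window of an AP-1 gene. All are on the plus strand of GRCh37, and capitals mark TGANTCA or TGACGTCA.
JUNB upstream, H3K27ac (chr19:12897054-12897173): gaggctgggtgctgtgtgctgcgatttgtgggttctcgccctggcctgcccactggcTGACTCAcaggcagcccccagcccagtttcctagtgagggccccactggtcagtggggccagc
FOSL1 upstream, H3K27ac (chr11:65680522-65680641): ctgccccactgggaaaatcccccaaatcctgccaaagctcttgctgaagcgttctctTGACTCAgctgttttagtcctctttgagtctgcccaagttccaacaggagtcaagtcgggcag
FOSL1 upstream, H3K4me3 (chr11:65678999-65679118): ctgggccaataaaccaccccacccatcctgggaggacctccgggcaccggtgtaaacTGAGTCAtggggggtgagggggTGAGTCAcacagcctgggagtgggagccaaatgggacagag
FOSL2 downstream, H3K27ac (chr2:28646700-28646819): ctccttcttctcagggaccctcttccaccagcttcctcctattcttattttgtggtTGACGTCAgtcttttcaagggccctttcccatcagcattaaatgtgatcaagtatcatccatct
FOSL2 distal region, H3K27ac (chr2:28662178-28662297): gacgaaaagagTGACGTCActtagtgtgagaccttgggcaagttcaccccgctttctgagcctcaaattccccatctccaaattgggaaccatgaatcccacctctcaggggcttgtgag

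By distance, both FOSL1 stretches were nearer to the start of C11orf68 than to that of FOSL1. The FOSL1 H3K27ac stretch came from the peak at 13150 to 12258 bp before the start, the third strongest H3K27ac peak in the 8 windows, which held a further TGAATCA. The FOSL1 H3K4me3 stretch contained TGAGTCA at 2 places and lay under a peak at 11161 to 10877 bp before the start (−log10 q 2.73). The JUNB stretch came from a peak 5630 to 5106 bp before the start that overlapped an H3K4me3 peak. The motif itself lay outside that H3K4me3 peak. The first FOSL2 stretch belonged to a weak peak (1.62) and the second to a peak of the 8-peak region (3.95). The remaining TGANTCA matches were in peaks near MUS81, inside the FOSL1 window, and in the distal FOSL2 region. Near MUS81 the H3K27ac peak held only TGAATCA and the H3K4me3 peak TGACTCA. The distal FOSL2 peak held only TGATTCA.

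Genes with related roles were described in the same way by canonical starts, where all genes reached 41.3% for H3K4me3 and 25.2% for H3K27ac. Among 26 other immediate-early genes, 21 had H3K4me3 and 14 had H3K27ac. KLF10 and TRIB1 had the longest length under H3K27ac peaks at the outer start in this list, 1573 and 1309 bp. EGR1, which shares serum response elements with FOS, also had H3K4me3 at its start and no H3K27ac peak in its window. NR4A3, a nuclear receptor gene of the same response, had no peak. Among 10 kinases that signal to AP-1, 8 had H3K4me3 and 4 had H3K27ac, the latter being MAP3K1, MAP2K1, MAP2K2 and MAPK3, which encodes ERK1.

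Of 7 regulators of the FOS promoter, 3 had H3K4me3 and 2 had H3K27ac. SRF, which encodes serum response factor, had 2 H3K4me3 peaks and no H3K27ac peak at its outer start, and CREB1 had both marks. Of 13 related bZIP genes, 9 had H3K4me3 and 5 had H3K27ac (MAFK, MAFG, MAFF, NRL and JDP2), and ATF2 had no peak in its window. Of 13 genes known as AP-1 targets, 6 had H3K4me3 and 4 had H3K27ac. CCND1, PLAU and CD44 had both marks, IVL had H3K27ac alone, and MMP1 and MMP3, which encode secreted proteases, PLAUR and TIMP1 had no peak in their windows.

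**Figure D5:**
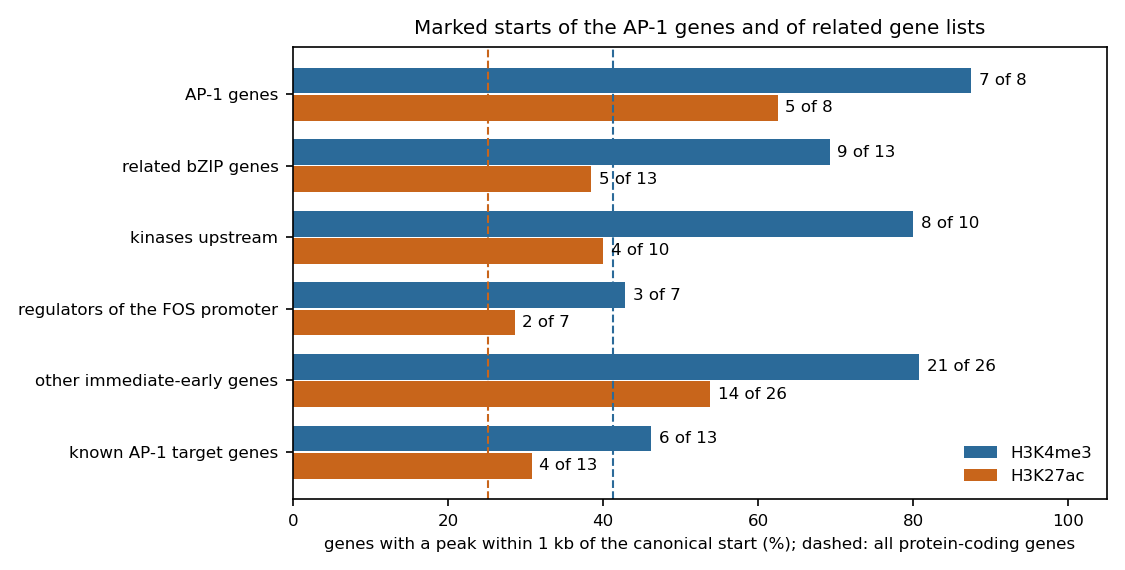
Percent of genes with a peak within 1 kb of the canonical start, for the AP-1 genes and 5 lists of related genes, with H3K4me3 in blue, H3K27ac in orange and counts beside the bars. Dashed lines are the shares of all protein-coding genes, 41.3% for H3K4me3 and 25.2% for H3K27ac. The AP-1 genes (7 of 8 and 5 of 8) and the other immediate-early genes (21 of 26 and 14 of 26) have the highest shares of H3K27ac.

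The listed gene whose pattern was closest to each member was sought over 4 percentile ranks among protein-coding genes, namely the length under peaks and the highest −log10 q at the outer start for each mark. The distances ranged from 0 to 18.7 percentile points. JUNB was closest to CCND1 (5.64 points), ATF3 to NR4A2 (7.63), FOSL1 to TRIB1 (10.7), FOSL2 to NR4A1 (12.5), JUN to MCL1 (14.2), FOS to MAPK9 (17.1) and JUND to IER5 (18.7). The ranks of ATF3 and FOSL2 depend on the use of outer starts. There ATF3 had no H3K4me3 and FOSL2 no H3K27ac, although these peaks lay within 1 kb of their canonical starts. FOSB was at 0 on each rank and tied with 8 listed genes that also had no peak, ATF2 among them. Only 69 listed genes and these 4 ranks entered the comparison, each from 1 library per mark.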

How the data were processed

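ChIP-seq peak lists of H3K27ac and H3K4me3 in H2087 cells were analysed, with 1 library per mark. According to the study's methods and the submitters' processing notes, Bowtie 1.1.1 served to align the reads to hg19 and MACS2 2.1.0 to call peaks. The methods give normalization as the purpose of the input. Calling mode, threshold, handling of duplicate reads and whether the input was the control in calling are not given in the sources used here. The last column of the deposited lists has no header. Its values were taken to be the −log10 q of each summit from the peak caller used by the authors, judged from the numbers alone, and this value grows with sequencing depth and copy number. The depth of the libraries is unknown.

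Distinct intervals, each with its highest −log10 q, were taken as peaks, which gave 24096 for H3K27ac and 18585 for H3K4me3. The starts were read as 0-based, and positions are given 1-based on hg19. Genes came from GENCODE 44 mapped to GRCh37, and PECAM1 was not found there under that name. Overlap meant at least 1 bp, and the stitching distance was 10 kb. Exact Clopper-Pearson 95% intervals cover counting error only, as if neighbouring peaks were independent.

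The 8 genes were all named. For each, the text gives its peaks over the gene and at the start and its strongest and widest peaks, and for the lists the gene closest in 4 percentile ranks. Members, lists and motifs were chosen with earlier results of these data known. Other thresholds, windows, starts, overlap rules and motif rules were tried, and canonical starts and the omission of FOSL1 were added after the data had been seen. Python 3.11.15, pandas 2.3.3, NumPy 2.4.6, SciPy 1.17.1 and pysam 0.24.0 were used, and overlap and motif functions were tested on simulated data.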

Additional observations from a re-analysis of the deposited data

How the results depend on the processing

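No paired analysis was possible because there was 1 library per mark, and for the same reason no replicate could be left out. Without read counts, the limits below cannot be tied to depth. Of 58 alternative values for 12 results, 34 stayed within a factor of 1.5 for counts and lengths or within the 95% interval for shares, and 24 moved. When peaks under the median −log10 q of their list were dropped, 30 H3K27ac and 24 H3K4me3 peaks remained over 12535 and 12282 bp, and the stitched regions that touched a member held 18 in place of 30 H3K27ac peaks. With a −log10 q of at least 5, 3 and 7 peaks remained over 2768 and 4216 bp, and 14.3% of the H3K4me3 peaks overlapped H3K27ac. At this level 0 outer starts had H3K27ac, 2 had H3K4me3 and 0 had both. A window of 10 kb left 24 and 31 peaks over 8826 and 12060 bp. Merging peaks within 1 kb gave 29 H3K4me3 peaks. The overlapping shares were 16.1% of H3K27ac and 19.6% of H3K4me3 peaks when each peak had to cover 50% of the other, and 56.9% of H3K4me3 peaks had H3K27ac within 1 kb. TGACGTCA in place of TGANTCA was found in 0% of H3K4me3 peaks, compared with 0.199% of the whole list. Of the alternatives added after the data had been seen, canonical starts changed no count by over a factor of 1.5, and without FOSL1 29 H3K4me3 peaks remained and 18.2% of the H3K27ac peaks overlapped H3K4me3.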
